A study of Mus musculus with 10 samples.

Results

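Natural killer (NK) cells are innate lymphocytes that kill stressed or infected cells and secrete cytokines. Their killing is steered by activating and inhibitory surface receptors and is carried out by perforin and granzymes, which are stored in cytotoxic granules and also used by CD8 T cells. The T-box factors Eomes and T-bet direct the development and the effector program of both lineages. The expression of 10 such genes was examined in obstructed mouse kidneys: the receptor genes Klrk1, Klrb1c, Klrd1 and Ncr1, the granule genes Nkg7, Gzma, Gzmb and Prf1, and the factor genes Eomes and Tbx21. They were chosen by name as NK cell receptors, cytotoxic effectors and lineage factors, and are 10 of the 54532 genes in the count table.

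All mice were male wild-type (WT) C57BL/6 animals, and all of them underwent unilateral ureteral obstruction (UUO) by ligation of the left ureter at 8 weeks of age. They received either PBS as the control or dimethyl malonate (DMM), an inhibitor of succinate dehydrogenase, at 40 mg/kg by intraperitoneal injection every other day. UUO kidneys were taken at 14 days and sequenced as bulk RNA, 5 libraries from PBS-treated and 5 from DMM-treated mice. There was no group without obstruction, so the comparison bears on DMM against PBS in obstructed kidneys.

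Total counts per library were 18078777, 16457495, 17825223, 18068465 and 16508788 in PBS replicates 1 to 5 and 15797882, 15722527, 17806034, 19475833 and 16794390 in DMM replicates 1 to 5. At this depth the 10 genes were thinly covered. Together they collected 196 to 760 counts per library, with a median of 447.5. Median counts per library ran from 15.5 for Klrb1c to 128.5 for Klrk1, whereas the median over all tested genes was 406.5. Counting error alone therefore gives a coefficient of variation of 25.4 percent at the median count of Klrb1c and 8.82 percent at that of Klrk1.

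Some libraries stood apart. DMM replicate 1 had a summed level of 12 interferon-stimulated genes of 2962 CPM (counts relative to the library total after TMM scaling), while the other 4 DMM libraries had 311 to 413 and the PBS libraries 3909, 2371, 2786, 3910 and 3751. PBS replicate 3 had the highest summed kidney epithelium markers of its group, 7236 CPM. That lies among the DMM libraries other than replicate 1, which had 5467 to 8349 CPM. DMM replicate 1 was inside the PBS range on this list too, at 3599 CPM, while PBS replicate 3 was inside the PBS range for the interferon-stimulated genes. PBS replicate 3 and DMM replicate 1 carry a weight of 0 in the group means that the authors deposited, and the sources used here give no reason for it. Every comparison was therefore made over all 10 libraries, as the stated 5 replicates per group ask, and over the 8 libraries that carry weight. DMM replicate 4 had a TMM scaling factor of 0.852, against 0.981 to 1.05 in the other 9 libraries. Its counts also differed most from those of its group, with a chi-square per gene (squared count differences over those expected from sampling alone, near 1 without other variation) of 164 to 189 against the other DMM libraries, beside 9.91 to 88.7 for the other DMM pairs. The sets share 8 libraries and are not independent, and calls over the 8 libraries rest on leaving out a pair of libraries with such values.

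Over all 10 libraries, 0 of the 10 genes passed edgeR's quasi-likelihood test, for which a call needed a fold change above 1.5 and an adjusted p under 0.05. The same held for 0 of 16505 tested genes, 0 percent. DESeq2 called 0 of the 10 genes and 41 genes in all. When p was left unadjusted and the fold threshold kept, 3 of the 10 genes (Klrk1, Gzma and Gzmb) were lower in DMM, beside 4.11 percent of all tested genes. Over the 8 libraries, 1 of the 10 genes, Klrk1, was called lower, beside 590 of 16550 tested genes or 3.56 percent, and 2.73 percent were called higher. The unadjusted rule took 3 of the 10 genes there, beside 7.24 percent of all. In bulk tissue, fewer cells of a type and less RNA per cell cannot be told apart.

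The median log2 fold change of the 10 genes was -0.74 over 10 libraries and -0.77 over 8, beside 0.019 and 0.021 over all tested genes. The log2 fold change was below 0 for 9 of the 10 genes in both sets, the other being Klrb1c, which was below 0 as well over the 8 libraries when library size alone was the scaling. All 10 genes passed the filter on low counts in both sets.

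**Figure D1:**
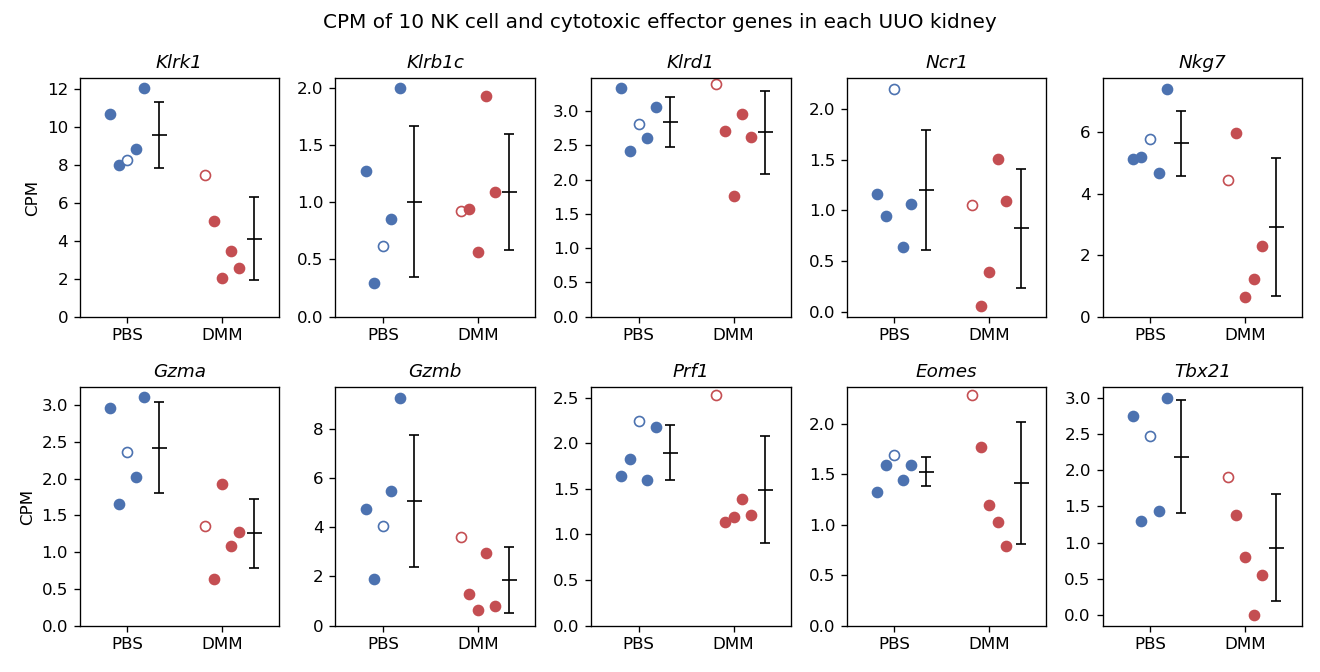
CPM of each gene in every library, with PBS in blue, DMM in red, and the mean ± SD of 5 libraries in black. Open circles are PBS replicate 3 and DMM replicate 1, and the groups of Klrk1 do not overlap.

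Klrk1 encodes NKG2D, an activating receptor of NK cells and CD8 T cells that binds stress-induced ligands. The gene ENSMUSG00000030149 lies at chr6:129610323-129623864, minus strand, in the mm10 build. Its counts were 202, 136, 147, 166 and 205 in PBS replicates 1 to 5 and 121, 80, 36, 57 and 42 in DMM replicates 1 to 5. Its levels were 10.7, 8.005, 8.26, 8.83 and 12.1 CPM in PBS and 7.47, 5.04, 2.04, 3.44 and 2.55 CPM in DMM. Every DMM library lay below every PBS library, DMM replicate 1 being the nearest to the PBS range. Klrk1 was the only one of the 10 genes without overlap over all 10 libraries, a pattern found in 1.16 percent of all tested genes. PBS-treated mice averaged 9.57 ± 1.74 (SD, n = 5) CPM, against 4.11 ± 2.20 (SD, n = 5) CPM for DMM-treated mice.

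The difference in Klrk1 did not pass the adjusted threshold over all 10 libraries (log2 fold change -1.22, SE 0.32, edgeR adjusted p = 0.378, 95 percent interval -1.93 to -0.51). Over the 8 libraries it passed (log2 fold change -1.60, SE 0.29, edgeR adjusted p = 0.0148, 95 percent interval -2.26 to -0.94), lower in 4 of 4 DMM libraries. Whether it passed depended on single libraries. The estimate ranged from -1.55 to -1.05 over the alternatives for the 10 libraries and from -1.89 to -1.41 over those for the 8. Leaving out DMM replicate 1 alone from the 10 gave an edgeR adjusted p of 0.0119, while leaving out DMM replicate 5 or PBS replicate 5 from the 8 gave 0.0542 and 0.0586 at log2 fold changes of -1.50 and -1.49. Without DMM replicate 1, 486 genes in all were called by edgeR, beside 0 over all 10 libraries. Over the alternatives tried, the edgeR and DESeq2 adjusted p of Klrk1 ranged from 0.0119 to 0.702 over the 10 libraries and from 7.72e-06 to 0.228 over the 8.

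Klrd1 encodes CD94, the partner chain of the NKG2 receptors that recognize the nonclassical molecule Qa-1. ENSMUSG00000030165 lies at chr6:129591782-129598775, plus strand, 11548 bases from Klrk1. Its counts were 63, 41, 50, 49 and 52 in PBS and 55, 43, 31, 49 and 43 in DMM, which correspond to 3.34, 2.41, 2.81, 2.61 and 3.06 CPM and 3.39, 2.71, 1.76, 2.96 and 2.61 CPM. The groups overlapped almost entirely, with only DMM replicate 3 below the PBS range. The difference was -0.084 on the log2 scale over 10 libraries, with a 95 percent interval of -0.55 to 0.38 and an edgeR adjusted p of 0.882. A fall as large as the estimate for Klrk1 lies outside this interval, although the difference between the genes was not tested.

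Ncr1 encodes NKp46, an activating receptor largely restricted to NK cells and related innate lymphocytes, and lies at chr7:4337724-4345164, plus strand (ENSMUSG00000062524). Its counts were 22, 16, 39, 12 and 18 in PBS and 17, 1, 7, 25 and 18 in DMM. PBS replicate 3 was the highest library and DMM replicate 2, with 1 count, the lowest, an exact 95 percent Poisson interval of 0.0253 to 5.57 counts that covers counting error only. Means were 1.20 ± 0.589 (SD, n = 5) CPM and 0.823 ± 0.582 (SD, n = 5) CPM, and the interval of the log2 difference, -1.80 to 0.72, was too wide to place the gene.

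Klrb1c encodes NK1.1, the marker by which NK cells of C57BL/6 mice are usually recognized, and lies at chr6:128778485-128789215, minus strand (ENSMUSG00000030325). The counts of 24, 5, 11, 16 and 34 in PBS and 15, 15, 10, 32 and 18 in DMM were the lowest in median of the 10 genes. The groups overlapped in full, at 1.01 ± 0.659 (SD, n = 5) CPM and 1.09 ± 0.508 (SD, n = 5) CPM. Its log2 difference of 0.12 over 10 libraries had an interval of -0.94 to 1.17, and its sign changed with single libraries. Its counts are reported as uncertain, since it belongs to a family of similar receptor genes and overlaps the predicted gene Gm44511 on the same strand. Gm44511 had 0 counts over all libraries, and an effect of the overlap on Klrb1c was not tested.

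Among the granule genes, Gzmb encodes granzyme B, a protease that triggers death of the target cell. ENSMUSG00000015437 lies at chr14:56258838-56262260, minus strand. Its counts were 89, 32, 72, 103 and 157 in PBS and 58, 20, 11, 49 and 13 in DMM, or 4.71, 1.88, 4.05, 5.48 and 9.24 CPM and 3.58, 1.26, 0.623, 2.96 and 0.790 CPM. PBS replicate 2 lay within the DMM range, and 3 of 5 DMM libraries lay below every PBS library. Gzmb had the largest estimated difference of the 10 genes without passing the adjusted threshold in edgeR (log2 fold change -1.46, SE 0.53, edgeR adjusted p = 0.388). Over the 8 libraries the estimate was -1.92 with an edgeR adjusted p of 0.0902 and a DESeq2 adjusted p of 0.0132. Leaving out DMM replicate 4 from the 8 gave an edgeR adjusted p of 0.00702 at a log2 fold change of -2.58, and leaving out any other library gave 0.0730 to 0.244 at -2.20 to -1.52. Leaving out DMM replicate 4 also raised the calls over all tested genes, to 2410 from 1042 over the 8 libraries. Over all alternatives for the 8 libraries the edgeR and DESeq2 adjusted p of Gzmb ranged from 0.00702 to 0.424.

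Gzma encodes granzyme A, a tryptase abundant in resting NK cells, and lies at chr13:113093825-113100981, minus strand (ENSMUSG00000023132). Counts were 56, 28, 42, 38 and 53 in PBS and 22, 10, 34, 18 and 21 in DMM. Levels were 2.97, 1.65, 2.36, 2.02 and 3.12 CPM and 1.36, 0.630, 1.93, 1.09 and 1.28 CPM, so that 4 of 5 DMM libraries lay below the PBS range and DMM replicate 3 within it. Its estimate was alike over 10 and 8 libraries. It did not pass in either (log2 fold change -0.94, SE 0.31, edgeR adjusted p = 0.385, and log2 fold change -0.98, SE 0.38, edgeR adjusted p = 0.172).

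Nkg7 encodes a membrane protein of cytotoxic granules needed for their release and lies at chr7:43437073-43438249, plus strand (ENSMUSG00000004612). Counts were 97, 88, 103, 88 and 126 in PBS and 72, 95, 11, 20 and 38 in DMM. The PBS libraries had 5.14, 5.18, 5.79, 4.68 and 7.41 CPM, whereas the DMM libraries spread more widely, over 4.44, 5.99, 0.623, 1.21 and 2.31 CPM. DMM replicate 2 lay inside the PBS range and the other 4 below it. The edgeR adjusted p was 0.501 over 10 libraries, and 0.299 over 8, at log2 fold changes of -0.95 and -1.15. Without DMM replicate 2 it was 0.0361 in edgeR over the remaining 7, at a log2 fold change of -2.03, and without any other library 0.245 to 0.517 at -1.23 to -0.82. Leaving out DMM replicate 2 gave 949 calls over all tested genes, beside 1042 over the 8 libraries. Over all alternatives for the 8 libraries the edgeR and DESeq2 adjusted p of Nkg7 ranged from 0.0361 to 0.517.

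Prf1 encodes perforin, which lets granzymes enter the target cell, and lies at chr10:61297833-61304680, plus strand (ENSMUSG00000037202). Counts were 31, 31, 40, 30 and 37 in PBS and 41, 18, 21, 23 and 20 in DMM. DMM replicate 1 was the highest of all 10 libraries and the other 4 DMM libraries were below every PBS library. The groups of Prf1 and Klrk1 did not overlap over the 8 libraries, 2 of the 10 genes, beside 10.6 percent of all tested genes. The edgeR adjusted p of Prf1 was 0.616 over 10 and 0.231 over 8 libraries.

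Tbx21 encodes T-bet and lies at chr11:97098071-97115331, minus strand (ENSMUSG00000001444). Counts were 52, 22, 44, 27 and 51 in PBS and 31, 22, 14, 0 and 9 in DMM. The count of 0 in DMM replicate 4 allows a level of up to 0.181 CPM, taking 3 counts as the limit. The group means were 2.19 ± 0.778 (SD, n = 5) CPM for PBS and 0.928 ± 0.743 (SD, n = 5) CPM for DMM, and 3 of 5 DMM libraries lay below every PBS library. The log2 difference of -1.24 over 10 libraries had an interval of -2.63 to 0.15 and an edgeR adjusted p of 0.501. Over the 8 libraries it was -1.63, with an interval of -3.28 to 0.014 and an edgeR adjusted p of 0.235. Leaving out a library from the 8 gave -2.22 to -1.22.

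Eomes encodes eomesodermin and lies at chr9:118478212-118486132, plus strand (ENSMUSG00000032446), where the antisense gene Gm33460 overlaps it with 4 counts over all libraries. Counts were 25, 27, 30, 27 and 27 in PBS and 37, 28, 21, 17 and 13 in DMM. The PBS libraries varied by 9.42 percent and the DMM libraries by 42.9 percent, with DMM replicates 1 and 2 above the PBS range and the other 3 below it. Counting error alone gives 19.2 percent at its median count of 27. The PBS spread was thus narrower than counting error, and the PBS range is a narrow yardstick. Its log2 difference was -0.11, with an interval of -0.77 to 0.54.

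Ncr1, Klrb1c, Klrd1 and Eomes were read together as NK cell markers, although Klrd1 and Eomes are also expressed by CD8 T cells. The 4 were picked from the receptor and factor genes and leave out Klrk1 and Tbx21. None of the 4 was at 0 in any library, but Ncr1 had 1 count in DMM replicate 2, under the limit of 3 counts, and 0 of the 4 were called in either set, by edgeR or by DESeq2. Their estimates lay between -0.54 and 0.12 on the log2 scale over 10 libraries. The intervals of Ncr1 and Klrb1c were wide. Over 10 libraries the interval of Ncr1 reached the estimate for Klrk1, and those of Klrb1c, Klrd1 and Eomes did not. The other 6 genes had estimates of -1.46 to -0.34. Among them Klrk1 was at -1.22 and Tbx21 at -1.24, so the 4 do not stand for all NK cell genes. Of 17 other NK receptor genes tested over 10 libraries, 16 had negative estimates, with a median of -0.78.

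**Figure D2:**
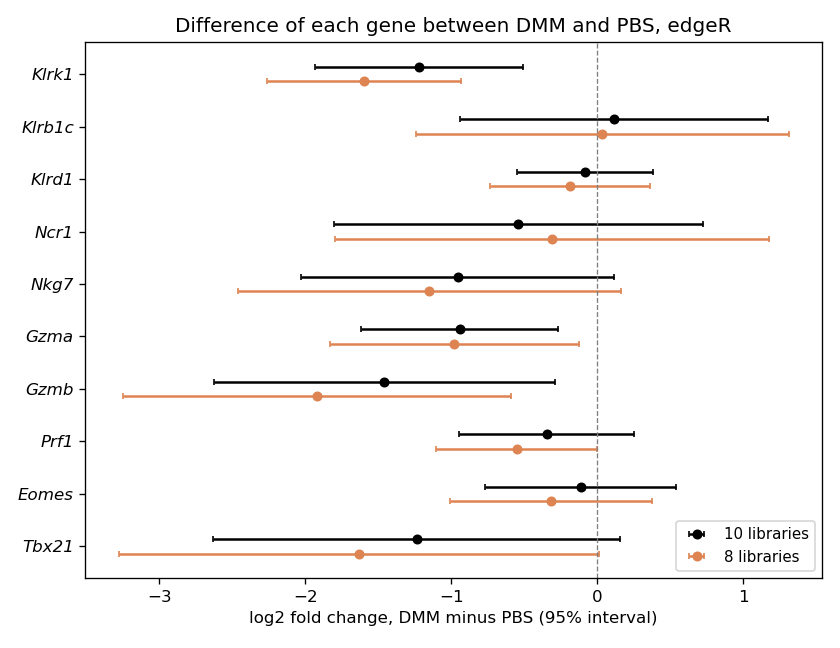
Log2 fold change of each gene, DMM minus PBS, with its 95 percent interval from edgeR over 10 libraries (black) and over 8 (orange). The interval lies below 0 for Klrk1, Gzma and Gzmb over 10 libraries.

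Levels were set beside each other per length, with the deposited gene length as divisor. It was 7183 bases for Klrk1, which has 6 annotated transcripts, and 914 bases for Nkg7. Which transcripts were expressed was not tested, so the order of the genes is a rough one. In PBS, Nkg7 was highest at 6.17 ± 1.17 CPM per kb (SD, n = 5), followed by Gzmb at 3.53 ± 1.87, Gzma at 2.41 ± 0.617, Klrd1 at 2.22 ± 0.285 and Klrk1 at 1.33 ± 0.243 CPM per kb. Tbx21, Ncr1 and Prf1 followed at 0.881 ± 0.313, 0.779 ± 0.383 and 0.734 ± 0.117 CPM per kb, and Eomes and Klrb1c were lowest at 0.367 ± 0.0346 and 0.340 ± 0.223. Gzmb lay within its spread of Gzma and Klrd1. Gzma and Klrd1 lay within their spread of each other, as did Tbx21, Ncr1 and Prf1, and Eomes and Klrb1c. In DMM, Nkg7 remained first at 3.19 ± 2.47 CPM per kb and Klrd1 came next at 2.10 ± 0.469, ahead of Gzmb at 1.28 ± 0.934 and Gzma at 1.25 ± 0.466, with spreads that overlap.

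Over the 10 libraries, the correlation of log2 CPM between pairs of them ranged from -0.25 to 0.87, with a median of 0.52 over 45 pairs, of which 40 were positive and the other 5 involved Klrb1c or Ncr1. These values include the difference between groups. Klrk1 and Gzmb followed the mean of the other genes most closely, with r = 0.90 and 0.88, and Klrb1c least, with r = 0.11. Outside the list, the genes most like its mean over 10 libraries were Gbp10 (r = 0.97), Tmem140 (r = 0.95), Gm12185 (r = 0.95), Tnip3 (r = 0.95) and Neurl3 (r = 0.95). They were picked as the highest over all tested genes outside the list, and those of thinly counted genes are limited by counting error.

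Other genes of the NK cell system were read from lists. Of 30 other NK receptor genes, 17 were tested over the 8 libraries and 4 fell (Slamf7, Klra2, Slamf6 and Cd226), and 0 passed over 10 libraries. Slamf7, an activating receptor also found on macrophages and B cells and the most abundant of the list, had 25.04 ± 5.35 CPM for PBS against 10.3 ± 3.33 CPM for DMM (SD, n = 4 each), a log2 fold change of -1.28 (SE 0.26, edgeR adjusted p = 0.0231). Klra2, a Ly49 family receptor, had 16.4 ± 2.43 CPM for PBS against 6.97 ± 1.65 CPM for DMM (SD, n = 4 each), a log2 fold change of -1.24 (SE 0.21, edgeR adjusted p = 0.0107). The Ly49 genes are a family of similar genes, and their counts are reported as uncertain. An effect of this similarity on Klra2 was not tested. Klra2 averaged 12.6 CPM over 10 libraries, beside 0.715 CPM for Klra7, the next most abundant Ly49 gene of the list. The cell type that Klra2 came from was not tested, so its fall is not taken as one of NK cells. Estimates were negative for 16 of 17 over 10 libraries and 13 of 17 over 8, beside 47.2 and 47.6 percent of all tested genes. The median log2 fold change of the tested genes was -1.16 over the 8 libraries and -0.78 over 10.

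Of 14 adaptor and signaling genes, 13 were tested and 3 fell over the 8 libraries. Fcer1g, the signaling chain shared by Fc receptors and NKp46, had 82.1 ± 11.9 CPM for PBS against 35.4 ± 9.28 CPM for DMM (SD, n = 4 each), a log2 fold change of -1.22 (SE 0.20, edgeR adjusted p = 0.0109), and is also abundant in macrophages. Fyn, a Src family kinase, and Vav1, an exchange factor, were the others, Fyn with 51.6 ± 4.54 CPM for PBS against 34.3 ± 2.45 CPM for DMM (SD, n = 4 each), a log2 fold change of -0.59 (SE 0.11, edgeR adjusted p = 0.0165). The most abundant, Plcg2, did not pass (log2 fold change -0.28, SE 0.12, edgeR adjusted p = 0.232).

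Of 19 other granule and exocytosis genes, 12 were tested and 1 fell over the 8 libraries, Unc13d, which primes granules for fusion, with 9.54 ± 0.768 CPM for PBS against 5.95 ± 0.418 CPM for DMM (SD, n = 4 each), a log2 fold change of -0.68 (SE 0.15, edgeR adjusted p = 0.0283). Gzmd, Gzme, Gzmf, Gzmg and Gzmn had 0 counts in all libraries. Ctsc, which activates granzyme precursors, did not pass (log2 fold change -0.46, SE 0.14, edgeR adjusted p = 0.0781), and the broadly expressed Lamp1 was 874 CPM in PBS and 951 CPM in DMM. Among 9 effector ligands and cytokines, 7 were tested and Tnfsf10, the death ligand TRAIL, fell, with 167 ± 24.8 CPM for PBS against 78.3 ± 11.7 CPM for DMM (SD, n = 4 each), a log2 fold change of -1.10 (SE 0.15, edgeR adjusted p = 0.00531). Ccl5, a chemokine of cytotoxic lymphocytes, did not pass (log2 fold change -1.24, SE 0.36, edgeR adjusted p = 0.0787).

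Of 12 other lineage factors, all were tested and Runx3, which acts with T-bet in cytotoxic lymphocytes, fell over the 8 libraries, with 19.1 ± 3.22 CPM for PBS against 9.74 ± 1.85 CPM for DMM (SD, n = 4 each), a log2 fold change of -0.97 (SE 0.19, edgeR adjusted p = 0.0178). Ikzf3 did not pass (log2 fold change -0.92, SE 0.24, edgeR adjusted p = 0.0524), nor did the most abundant factor, Bhlhe40 (log2 fold change 0.26, SE 0.13, edgeR adjusted p = 0.288). Of 20 cytokine and homing receptors and their ligands, 17 were tested and 8 fell over the 8 libraries. They included Cxcl10, a ligand of Cxcr3 and itself interferon-inducible, with 152 ± 39.6 CPM for PBS against 20.99 ± 4.75 CPM for DMM (SD, n = 4 each), a log2 fold change of -2.86 (SE 0.23, edgeR adjusted p = 0.000238), and Il2rg, the common cytokine receptor chain, with 20.9 ± 2.89 CPM for PBS against 8.51 ± 1.70 CPM for DMM (SD, n = 4 each), a log2 fold change of -1.30 (SE 0.18, edgeR adjusted p = 0.00531). The most abundant, Cx3cl1, did not pass (log2 fold change -0.091, SE 0.22, edgeR adjusted p = 0.848).

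Of 13 genes for ligands of NK receptors, 11 were tested and 2 fell over the 8 libraries. H2-T23 encodes Qa-1, the molecule bound by CD94 with NKG2A, and had 452 ± 108 CPM for PBS against 117 ± 44.9 CPM for DMM (SD, n = 4 each), a log2 fold change of -1.96 (SE 0.34, edgeR adjusted p = 0.0117). Cd48, the ligand of 2B4, had 20.9 ± 1.58 CPM for PBS against 12.001 ± 2.27 CPM for DMM (SD, n = 4 each), a log2 fold change of -0.80 (SE 0.16, edgeR adjusted p = 0.0221). Over all 10 libraries, 0 genes of any of these lists passed in edgeR, and the estimates were smaller for H2-T23 (log2 fold change -1.44, edgeR adjusted p = 0.378), Cxcl10 (log2 fold change -1.70, edgeR adjusted p = 0.385) and Il2rg (log2 fold change -1.01, edgeR adjusted p = 0.378).

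Several of the 10 genes are also expressed by T cells, and markers of other cells were read as well. The summed level of 12 T cell markers was 63.2, 71.4, 67.1, 50.3 and 96.7 CPM in PBS replicates 1 to 5 and 60.2, 53.9, 20.3, 27.3 and 28.4 CPM in DMM replicates 1 to 5. All 12 were tested and all 12 had negative log2 fold changes in both sets. Over the 8 libraries 1 of 12 was called, Cd4, the most abundant, with 18.9 ± 4.44 CPM for PBS against 8.26 ± 2.49 CPM for DMM (SD, n = 4 each), a log2 fold change of -1.19 (SE 0.26, edgeR adjusted p = 0.0271). Cd3g did not pass (log2 fold change -1.22, SE 0.36, edgeR adjusted p = 0.0794). No T cell marker was at 0 in all libraries.

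The 10 genes themselves summed to 35.005, 25.1, 32.5, 29.6 and 44.7 CPM in PBS and 28.9, 20.9, 11.1, 17.5 and 14.3 CPM in DMM. The sums of the T cell markers and of the 10 genes were both lowest in DMM replicate 3 and highest in PBS replicate 5. The same held for the other NK receptors, at 23.9 and 89.7 CPM, and for the adaptor and signaling genes, at 211 and 431 CPM. The shared extremes are therefore not particular to T cell markers. The part of T cells in the differences of Klrk1, Gzma, Gzmb, Nkg7 and Tbx21 was not tested.

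Macrophage markers summed to 2248, 2337, 1796, 2055 and 2451 CPM in PBS and 2129, 1502, 1207, 929 and 1221 CPM in DMM, and 2 of 9 fell over the 8 libraries, Cd68 (log2 fold change -0.96, SE 0.16, edgeR adjusted p = 0.0108) and C1qb (log2 fold change -1.35, SE 0.34, edgeR adjusted p = 0.0479). Their most abundant gene, Lyz2, did not pass (log2 fold change -0.95, SE 0.28, edgeR adjusted p = 0.0790). Of 6 B cell markers, 1 fell, Cd22 (log2 fold change -1.79, SE 0.21, edgeR adjusted p = 0.00236), the most abundant, and Pax5 did not pass (log2 fold change -1.10, SE 0.32, edgeR adjusted p = 0.0748). The B cell sums were 15.3, 16.3, 13.8, 18.6 and 17.5 CPM in PBS and 16.7, 12.1, 7.54, 6.52 and 9.48 CPM in DMM. Their part in the result was not tested.

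Interferon-stimulated genes fell over the 8 libraries in 12 of 12 tested. They included Irf7, an amplifier of interferon production and the most abundant (log2 fold change -3.61, SE 0.38, edgeR adjusted p = 0.00119), and Oasl1 (log2 fold change -3.46, SE 0.16, edgeR adjusted p = 6.88e-05). Over all 10 libraries 0 of 12 passed in edgeR, with all 12 at an unadjusted p under 0.05 and a median log2 fold change of -1.90. The sums were 3909, 2371, 2786, 3910 and 3751 CPM in PBS and 2962, 413, 373, 370 and 311 CPM in DMM. DMM replicate 1, the highest DMM library for Klrk1, Klrd1, Gzmb, Prf1, Eomes and Tbx21, was also the highest here. It was not the highest for Klrb1c, Ncr1, Nkg7 and Gzma. Among DMM libraries it was highest as well for T cell (60.2 CPM), B cell (16.7 CPM), macrophage (2129 CPM) and other NK receptor (67.3 CPM) sums, but not for neutrophil markers. The part of the interferon genes in the result was not tested.

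Of the kidney epithelium markers, 4 of 10 rose over the 8 libraries. They were Lrp2 (log2 fold change 1.97, SE 0.35, edgeR adjusted p = 0.0138), Cubn (log2 fold change 1.73, SE 0.30, edgeR adjusted p = 0.0113), Slc12a1 and Slc12a3, and the most abundant marker, Umod, did not pass (log2 fold change 0.62, SE 0.38, edgeR adjusted p = 0.389). The sums were 4327, 3851, 7236, 2445 and 2630 CPM in PBS and 3599, 6488, 7547, 5467 and 8349 CPM in DMM. CPM is a share of the library, and the part of a larger epithelial share in the lower levels of the 10 genes was not tested.

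Red blood cell markers, 5 of 5 tested, passed the adjusted threshold in 0 cases, while 5 of 5 over 10 libraries and 5 of 5 over 8 were higher at an unadjusted p under 0.05, with median log2 fold changes of 1.58 and 1.78. Of all tested genes, 315 of 16505 over 10 libraries and 1067 of 16550 over 8 were higher by the unadjusted rule with the fold threshold kept. Their sums were 136, 228, 230, 157 and 152 CPM in PBS and 288, 216, 593, 788 and 276 CPM in DMM. Hbb-bs, the most abundant (log2 fold change 1.46, SE 0.39, edgeR adjusted p = 0.0598), and Alas2 (log2 fold change 1.78, SE 0.49, edgeR adjusted p = 0.0630) had positive estimates. The other red blood cell markers were Hba-a1, Hba-a2 and Hbb-bt. Neutrophil markers passed in 0 of 4 tested, with sums of 5.35, 7.71, 4.67, 67.9 and 11.8 CPM in PBS and 9.88, 3.47, 13.5, 73.4 and 12.04 CPM in DMM, high in PBS replicate 4 and DMM replicate 4. S100a9, Cxcr2 and Retnlg had edgeR adjusted p-values of 0.954, 0.802 and 0.893. Mast cell and basophil markers were near 0, with sums of 0.212, 0.706, 0.337, 1.12 and 0.235 CPM in PBS and 0.432, 1.20, 1.19, 0.362 and 0.547 CPM in DMM, Ms4a2 being the most abundant, Cpa3 under the filter and Fcer1a at 0.

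**Figure D3:**
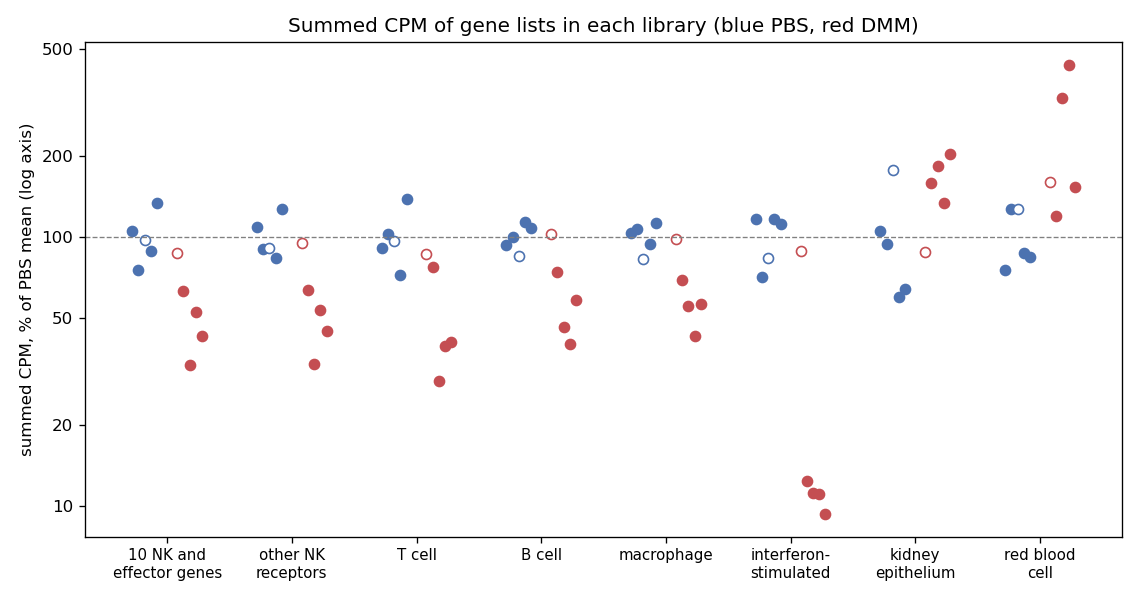
Summed CPM of gene lists in each library as a percent of the PBS mean, on a log axis, with PBS in blue and DMM in red. Open circles are PBS replicate 3 and DMM replicate 1, and DMM replicate 1 lies among the PBS libraries for the interferon-stimulated genes.

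Promoters were available for 9 of the 10 genes, Klrd1 being without an entry. They are RefSeq sequences of the GRCm38.p6 build. Their starts are those of RefSeq and can differ from the gene coordinates printed above, as for Gzmb. The 250 bases upstream of the start were searched on both strands for TCACACCT (T-box), TGTGGT (Runx) and TTCNNNGAA (GAS). TCACACCT was present in 1 of the 9 (Nkg7) and in 1.12 percent of 32851 promoters, TGTGGT in 7 of the 9 and in 14.05 percent, and TTCNNNGAA in 1 of the 9 (Nkg7) and in 7.02 percent. A shorter T-box core, AGGTGT, was added after the promoters of the 10 genes had been read, and its reverse complement is part of TCACACCT. It was present in 3 of the 9 (Nkg7, Gzma and Prf1) and in 11.8 percent of all, and nothing is drawn from it. A match describes letters and not a bound site. The promoters of Klrk1 (chr6:129623865-129624114, minus strand), Gzma (chr13:113100982-113101231, minus strand) and Gzmb (chr14:56262335-56262584, minus strand) are shown because these 3 genes were below an unadjusted p of 0.05 in both sets, with matches in capitals.
Klrk1: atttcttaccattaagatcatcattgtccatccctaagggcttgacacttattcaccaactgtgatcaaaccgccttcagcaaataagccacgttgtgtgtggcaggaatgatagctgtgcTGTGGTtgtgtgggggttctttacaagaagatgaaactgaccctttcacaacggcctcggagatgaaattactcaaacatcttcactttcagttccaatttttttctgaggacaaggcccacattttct
Gzma: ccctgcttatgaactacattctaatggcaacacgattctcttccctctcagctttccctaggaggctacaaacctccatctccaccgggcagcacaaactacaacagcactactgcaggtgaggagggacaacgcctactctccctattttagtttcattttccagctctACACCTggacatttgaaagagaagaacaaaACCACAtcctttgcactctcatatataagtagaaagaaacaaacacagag
Gzmb: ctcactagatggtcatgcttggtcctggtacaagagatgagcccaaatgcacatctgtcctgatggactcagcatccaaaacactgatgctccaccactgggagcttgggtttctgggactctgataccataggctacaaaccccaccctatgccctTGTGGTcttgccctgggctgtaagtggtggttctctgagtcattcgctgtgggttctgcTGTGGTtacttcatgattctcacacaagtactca
The capitals are TGTGGT or its reverse complement in all 3 promoters, and in Gzma also the reverse complement of AGGTGT.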

How the data were processed

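Bulk RNA was sequenced from 10 UUO kidneys, 5 per group. The authors deposited a count of reads per gene without normalization, an FPKM value per gene and library, and a mean signal per group, made from counts scaled by size factors. The submitters' processing notes name HISAT2 2.0.5, and the reads were aligned to mm10. The counter, annotation release and strand setting are not given in the sources used here. The deposited log2 fold change, p-value and adjusted p-value of the authors' comparison were not used, nor were the FPKM values. The group means served only to find which libraries carry weight in them.

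Counts were filtered with filterByExpr, scaled by TMM and tested with edgeR 4.0.16 (limma 3.58.1, R 4.3.3) on all genes, with Benjamini-Hochberg adjustment over all tested genes. Calls required both a fold change above 1.5 and a value under 0.05 after adjustment. DESeq2 1.42.0 was an alternative, as were other size factors, filters, thresholds, a replicate block and leaving out each library. The fits were checked on simulated counts. Correlations used log2 CPM with a prior count of 2. Tables and figures were made with pandas 2.3.3 and matplotlib 3.10.9. Outside the 10 genes, the text names the most abundant gene of each list, the 2 with the smallest p over the 8 libraries, any gene behind a count of 5 or fewer, and the 5 genes most correlated with the 10. A gene that this rule takes from the interferon list is not reported here. The genes and lists were chosen with earlier results of these data known. The shorter T-box core was added after the sequences had been read. Replicates are separate libraries, and every pair within a group differed by more than sampling noise.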

Additional observations from a re-analysis of the deposited data

Results flagged for a closer look

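In 52 groups of 5 libraries, 5 values lay far from the other 4 by Dixon's ratio, and chance flags about 1 in 20 groups. Prf1 in DMM replicate 1 was 2.53 CPM, beside 1.13 to 1.39 in the other DMM libraries. The same library had 193 CPM of effector ligands and cytokines, beside 81.7 to 112, and 2962 CPM of interferon-stimulated genes, beside 311 to 413. Tnfsf10 alone made up 164 of the 193 CPM, so that flag rests mostly on 1 gene. Neutrophil markers summed to 67.9 CPM in PBS replicate 4, beside 4.67 to 11.8, and to 73.4 CPM in DMM replicate 4, beside 3.47 to 13.5.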

How the results depend on the processing

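Of the 10 genes, 0 were called over 10 libraries and 0 to 1 with a library left out, the 1 being Klrk1 without DMM replicate 1, and 3 at an unadjusted p. Over 8 libraries, 1 was called, 0 to 2 with a library left out, 2 by DESeq2, 2 at an adjusted p under 0.10 and 3 unadjusted. Over all genes, 0 were called over 10 libraries, 41 by DESeq2, 993 unadjusted and 0 to 486 with a library left out, the highest without DMM replicate 1. Over 8, 1042 of 16550 were called, 1663 by DESeq2, 1473 at an adjusted p under 0.10 and 2265 unadjusted. With a library left out, 407 to 2410 were called, the lowest without PBS replicate 5 and the highest without DMM replicate 4. These counts over all genes hold both directions, 590 lower and 452 higher among the 1042. Genes without overlap were 1 of 10 over 10 libraries (1 to 3 with a library left out) and 2 over 8 (2 to 5). Of all tested genes these were 1.16 percent (1.38 to 6.97 percent) and 10.6 percent (11.8 to 18.5 percent), and the 5 of 10 were without PBS replicate 2 and without DMM replicate 2, beside 1982 and 2312 of all 16550 tested genes. The cause was not tested.

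The replicate block called 0 of the 10 genes and 0 of all genes over the 8 libraries, where only 3 numbers have both libraries, and 0 and 0 over 10 libraries. Same-numbered libraries had deviations correlated at -0.060, 0.079, 0.34, 0.12 and -0.22 for numbers 1 to 5, so the numbers are not taken as pairing the mice. With the block, Klrd1 was 0.040 over 8 libraries.

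With a library left out, log2 fold changes ran over 10 libraries from -0.19 to 0.53 for Klrb1c, -0.18 to 0.037 for Klrd1 and -0.35 to 0.037 for Eomes, and over 8 from -0.35 to 0.47 for Klrb1c and -0.86 to 0.059 for Ncr1. For Gzmb they ran over 8 libraries from -2.58 to -1.52 and over 10 from -1.85 to -1.12. With library size alone over 8 libraries, Klrb1c was -0.11. That scaling moved the median of all genes by -0.11 (log2) and the share of higher calls from 43.4 to 28.3 percent. Counts under 50 per library limit most of the 10 genes, and a p above the threshold does not show that levels were equal.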
